A study of Rattus norvegicus with 42 samples.

Results

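Transcript starts on the mitochondrial genome (MT) were taken from all 42 CAGE libraries by position and strand and summed in bins of 100 nt, counted from position 1 of MT in the rat assembly Rnor_6.0. This gave 327 bins with at least 1 tag, 163 on the plus and 164 on the minus strand. The whole genome had 1590218 bins, MT included, where bins outside MT were counted only with tags in at least 3 libraries. The MT bins held 31616504 of 430724879 tags, or 7.34%. The bins were defined by position alone, so none was chosen for its level or its change.

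CAGE (cap analysis of gene expression) sequences the 5′ ends of capped RNAs, and the position where a read begins is called a CAGE tag start site (CTSS). The libraries came from the slow soleus and the fast extensor digitorum longus (EDL) muscle of 21 mature Wistar rats, with both muscles taken from every rat. Each of the 7 phases had 3 rats, which were active controls (C), rats after 1, 3 or 7 days of hindlimb unloading by tail suspension (D1, D3 and D7), and rats unloaded for 7 days that then moved freely for 1, 3 or 7 days (R1, R3 and R7). Libraries held 1778712 to 23103236 tags, of which 179095 to 1845287 were on MT, and the 42 libraries were placed by their names in 6 sequencing lanes. All control libraries of both muscles were in lane 1 and all R1 libraries in lane 4, so that R1 and its lane cannot be told apart without the other phases. Whole muscle was sequenced, and a share of tags also depends on all other tags of the library. Fewer mitochondria, fewer cells that are rich in them, less mitochondrial RNA per cell and more RNA from outside MT therefore cannot be told apart.

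The mitochondrial genome is a small circle that is transcribed from both strands. Its transcripts begin near the control region as long RNAs, which are cut into ribosomal RNAs, transfer RNAs and the messenger RNAs of respiratory chain subunits, and most of its genes are encoded on the same strand. The 5′ ends that result from this cutting are not transcription starts, and mitochondrial messenger RNAs do not carry the cap of nuclear ones. A CTSS on MT is therefore given below as the position of a 5′ end that was read, and no position was assigned to a gene because an annotation of MT in this assembly was not used here.

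The 5′ ends covered nearly the whole plus strand but were concentrated in its first part. On the plus strand 15948 positions between 1 and 16263 had a tag in at least 1 library (98.1% of that span), and 3468 of them had tags in all 42. The minus strand had 14179 positions between 51 and 16313, and 180 of them had tags in all libraries. No plus-strand end was counted beyond 16263 and no minus-strand end before 51, a gap of 50 nt at either end of the linear reference, where a full read would cross the point at which the circle is opened. Positions 1 to 2500 of the plus strand held 76.1% ± 3.7 of the plus-strand tags (SD, n = 42, range 69.1% to 84.4%). Of the 163 plus-strand bins, 8 held 50% of the tags of that strand and 44 held 90%.

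A few single positions stood out on the plus strand. The largest by its mean was position 594 with 6.42% ± 2.01 of the MT tags (SD, n = 42, range 3.86% to 11.4%), followed by 1092 (4.61% ± 2.95), 1549 (4.47% ± 0.80), 490 (3.80% ± 0.93), 203 (3.73% ± 0.71) and 66 (3.18% ± 0.52). Positions 65, 1411, 1701 and 2148 held between 0.77% and 1.27% each. Together these 10 positions took 31.2% ± 2.6 of the MT tags in soleus and 30.0% ± 2.5 in EDL (SD, n = 21 each). Position 1092 ranged from 0.025% to 9.47%, and it was the largest position in some libraries, such as EDL D1 U24. Some of these ends were sharp and others were not. The base just before position 203 took a median of 0.88% of the tags of that pair of positions, whereas position 65 took 31.3% of the pair 65 and 66 and position 1700 took 24.3% of the pair 1700 and 1701. In bins, the plus-strand levels were highest at 1501 to 1600 (9.15% of MT tags), 501 to 600 (8.27%), 201 to 300 (7.58%), 1001 to 1100 (5.93%) and 401 to 500 (5.62%).

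The minus strand held 1.04% to 2.80% of the MT tags of a library, and its 5′ ends were spread more widely. The stretch from 13001 to 14000 took 39.3% ± 8.5 of the minus-strand tags (SD, n = 42), and the first 2500 positions 22.9% ± 8.5. The largest single position, 14063, held 0.103% ± 0.040 of the MT tags and 5.45% of those of the minus strand, followed by 16195 with 0.0404%. The 5 largest bins were 14001 to 14100 (0.153% of MT tags), 13601 to 13700 (0.139%), 13801 to 13900 (0.125%), 13901 to 14000 (0.116%) and 13501 to 13600 (0.0809%). It took 11 of the 164 minus-strand bins to reach 50% of the strand and 72 to reach 90%.

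**Figure D1:**
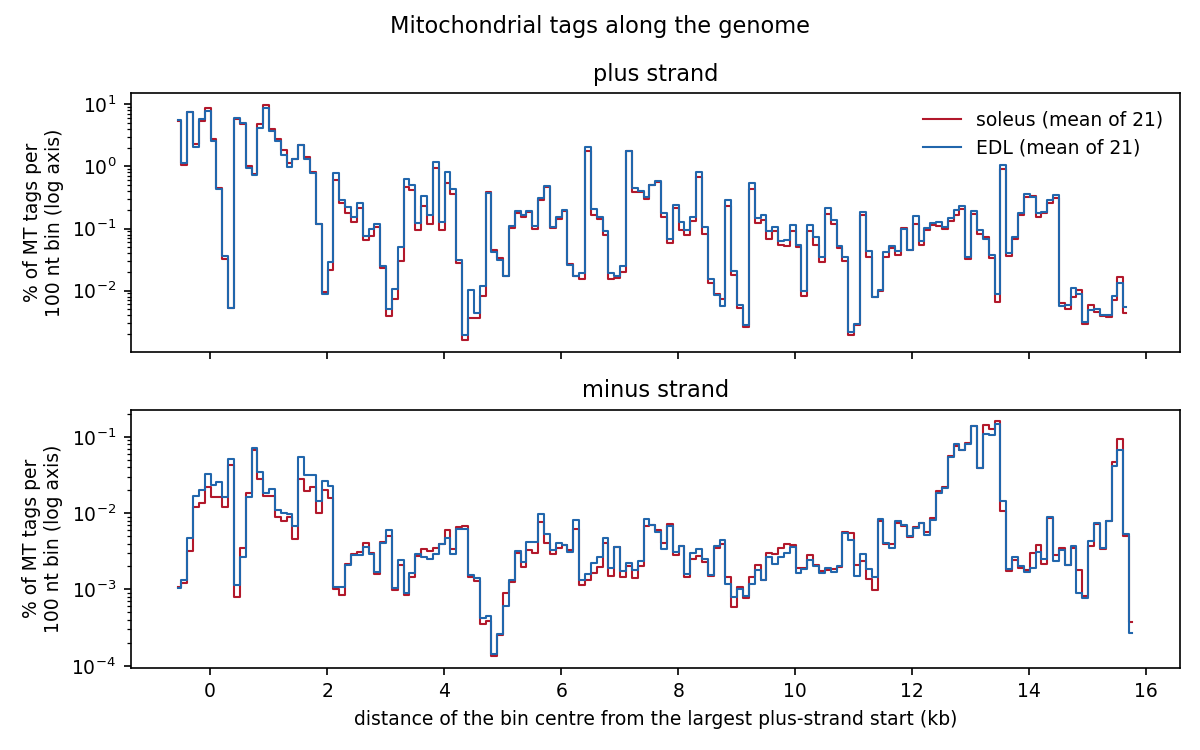
Percent of the MT tags in each 100 nt bin (log axis) along the plus strand (upper panel) and the minus strand (lower panel), as the mean of 21 soleus and of 21 EDL libraries, against the distance of the bin centre from the largest plus-strand start in kb. The plus strand is highest in the first stretch, where the bin from 1501 to 1600 holds 9.15%, and the minus strand rises to 0.153% about 13 kb further on, with both muscles on nearly the same line.

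The profile was alike in all libraries. Over the 327 bins, Pearson's r of the percent of MT tags had a median of 0.977 between libraries of a group, 0.983 between the muscles of an animal and 0.970 between libraries of different animals and muscles. This is a description across bins, which are not independent and share the same few large bins.

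Some animals stood apart from the others at a limited number of positions, in both muscles alike. Of 591 positions with a mean of at least 0.02% of MT tags, 39 parted the 21 animals into the same sets in soleus and EDL with a gap of at least 1 on the log2 scale, and 28 of these lay in a single plus-strand window from 1091 to 1132 that includes position 1092. In that window, U6, U8 (both C), U1, U2 (D7) and U4 (R3) had 0.048% to 0.36% of the MT tags, U7 (C) and U9 (D3) had 3.38% to 4.96%, and the other 14 animals 9.40% to 14.5%. At position 1455 of the plus strand the same 7 animals were on the high side, with 0.47% to 0.98% against 0.052% to 0.126% in the other 14. At position 6310 the 7 had 0.077% to 0.145% and the others 0.0012% to 0.0079%, while at position 13635 they had 0.0010% to 0.0053% against 0.015% to 0.109%. All 3 control animals were among these 7, as were 2 of the 3 at D7 and 1 of 3 at D3 and at R3, but none at D1, R1 or R7. At these positions a difference between the controls and D1, R1 or R7 cannot be told apart from a difference between animals. These sets were read from the data and were not tested.

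**Figure D2:**
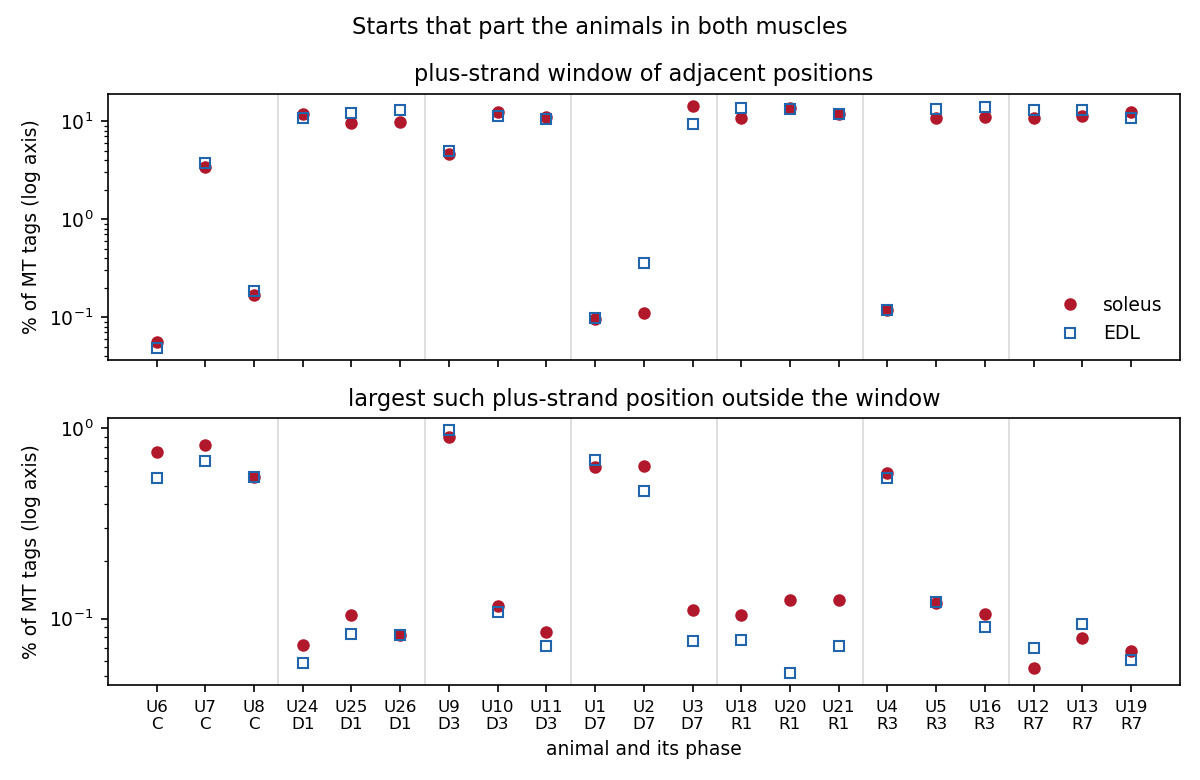
Percent of the MT tags (log axis) of each animal in the plus-strand window of 42 adjacent positions (upper panel) and at the largest such position outside it (lower panel), with soleus as filled circles and EDL as open squares, and the animals ordered by phase. The 2 muscles of an animal lie close together, and 7 animals including all 3 controls are low in the window and high at the other position.

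The share of the library that fell on MT was lower in the recovering soleus than in the unloaded soleus, and no such difference was measured in EDL. In control soleus it was 7.74%, 7.90% and 5.12% of the tags. It was 9.88%, 6.91% and 10.4% at D1, 6.37%, 9.97% and 9.21% at D3, and 8.10%, 6.43% and 8.11% at D7. During recovery it was 6.48%, 5.66% and 5.25% at R1, 4.71%, 5.16% and 6.26% at R3, and 3.20%, 4.50% and 6.65% at R7. The 3 R7 libraries thus differed more among themselves than those of R1, and only the highest recovery values, 6.65% and 6.48%, reached into the range of the unloaded libraries. The mean of the 9 recovery libraries was 5.32% ± 1.10 and that of the 9 unloading libraries 8.37% ± 1.57, a difference of −3.05 percentage points (exact two-sided permutation test, p = 0.00259 after Benjamini-Hochberg adjustment over the 9 tests of this measure).

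All soleus libraries of unloading were in lanes 1 to 3 and all those of recovery in lanes 4 to 6, so the lane and the recovery cannot be told apart in soleus. The EDL libraries of lanes 4 and 5, all from recovery, had means of 8.87% and 8.86% where the soleus libraries of these lanes had 5.53% and 4.78%. Against the controls the soleus difference was +1.45 points for unloading (exact permutation test, adjusted p = 0.327) and −1.60 for recovery (adjusted p = 0.194). The latter came to −2.06 without the window of 1091 to 1132 and to −1.34 without both strands of 1001 to 2000, with an adjusted p of 0.0409 in either case by the same exact test. The window held a mean of 1.20% of the MT tags in control soleus and 12.1%, 7.28% and 11.5% at R1, R3 and R7. Leaving it out thus takes more from the share in recovery than from that in the controls. The soleus difference of recovery from control came to −2.50 without control U8 (adjusted p = 0.0409, exact permutation test). The spread of the 7 soleus group means did not pass the test over 100000 resamples (adjusted p = 0.0648), but passed it without control U8 (0.0398), D1 U25 (0.0212), D3 U9 (0.0237) or R7 U19 (0.0299).

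In EDL the share was 6.30%, 9.31% and 7.59% in the controls, 10.1%, 10.001% and 7.35% at D1, 7.60%, 7.87% and 10.6% at D3, and 7.27%, 8.30% and 6.95% at D7. It was 6.85%, 10.7% and 9.03% at R1, 6.69%, 10.1% and 8.30% at R3, and 8.18%, 9.18% and 7.68% at R7. The ranges of all 7 phases overlapped. Recovery and unloading differed by 0.08 percentage points (8.53% ± 1.37 against 8.45% ± 1.40, n = 9 each, exact permutation test, adjusted p = 0.903), unloading and control by 0.71 and recovery and control by 0.79 (adjusted p = 0.596 for both, exact permutation test). The sign of these 3 differences was not stable, since all were negative when the totals were multiplied by TMM factors.

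Over all phases soleus had a lower share than EDL, 6.86% ± 1.95 against 8.38% ± 1.36 (SD, n = 21 each, permutation test with 100000 resamples, adjusted p = 0.0243). The soleus library was the lower of the pair in 16 of 21 animals, and the mean of soleus was the lower one in 5 of 6 lanes. The difference between the muscles was itself tested between recovery and unloading. It was −3.21 percentage points in recovery and −0.07 in unloading, so that it moved by −3.13 (exact permutation of the phase labels over animals, p = 0.0044). This test was not among the 9 planned for the measure, and its p was not adjusted.

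**Figure D3:**
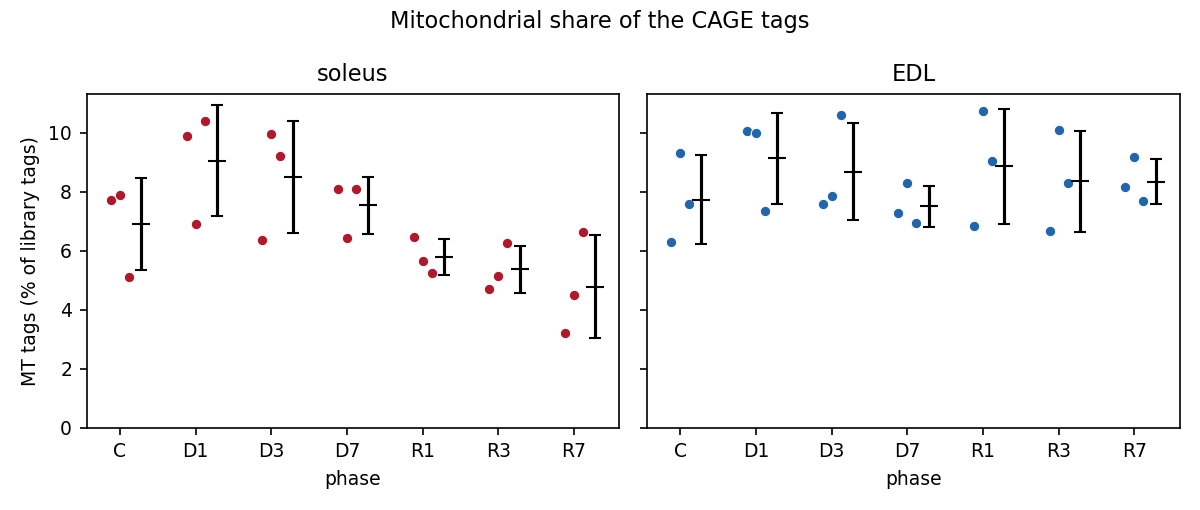
MT tags as a percent of the library tags for every soleus (left) and EDL (right) library by phase, with points for libraries and bars for the mean ± SD of 3 libraries. The soleus means fall from 9.06% at D1 to 4.79% at R7, while the EDL means stay between 7.51% and 9.14%.

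The part of the MT tags on the minus strand was lowest at R1 in soleus, and in EDL it was lower in the libraries of recovery than in the controls, a difference that cannot be told apart from one between animals. In soleus the minus strand held 2.40%, 1.97% and 2.35% of the MT tags in the controls, and 1.31%, 1.04% and 1.20% at R1. The R1 libraries were lower than all other soleus libraries, the nearest being D3 U10 with 1.39%. At R3 the values were 2.42%, 1.68% and 1.998%, and at R7 1.92%, 1.69% and 1.996%, both overlapping with the controls. Unloading gave 2.32%, 1.53% and 1.95% at D1, 1.81%, 1.39% and 1.98% at D3, and 2.80%, 2.27% and 2.06% at D7. In CPM, the counts scaled to the tags of the whole library, the minus strand had 1539 ± 326 in control soleus and 688 ± 138 at R1 (SD, n = 3), where 3 against 3 libraries cannot give an exact p below 0.1.

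EDL controls had 2.39%, 2.77% and 2.47% on the minus strand. The EDL libraries of recovery had 1.53%, 1.90% and 1.70% at R1, 2.37%, 1.63% and 1.70% at R3, and 1.82%, 1.77% and 1.51% at R7, all below the lowest control. Their mean was 1.77% ± 0.26 against 2.54% ± 0.20 in the controls (−0.77 points, exact permutation test, adjusted p = 0.0161). The raw p of 0.00455 is the smallest that 9 against 3 libraries allow. The lowest mean in EDL was that of D3, with libraries at 1.41%, 1.07% and 1.92%, and D1 gave 2.06%, 2.34% and 1.89% and D7 2.21%, 2.53% and 2.02%. The minus share was also high in 3 of the other animals that stood apart. At D7, U1 and U2 had 2.21% and 2.53% in EDL against 2.02% in U3, and 2.80% and 2.27% in soleus against 2.06%. At R3, U4 had 2.37% in EDL against 1.63% and 1.70%, and 2.42% in soleus against 1.68% and 1.998%. At D3, U9 was not above the others, with 1.41% in EDL and 1.81% in soleus. All 3 controls and only 1 of the 9 recovery animals were among those that stood apart. Without both strands of 1001 to 2000 the difference was −0.42 (adjusted p = 0.102, exact permutation test), and without control U6, U7 or U8 the adjusted p of the exact test was 0.0545, 0.0613 and 0.0545.

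The spread of the 7 group means passed the permutation test over 100000 resamples in both muscles (adjusted p = 0.0161 each). It did not pass without both strands of 1001 to 2000 (0.102 in soleus and 0.169 in EDL). Nor did it pass when labels were permuted within lanes (0.297 in both), where the labels of C and R1 could hardly move. In EDL lane 1 held only C and lane 4 only R1. In soleus these lanes held 4 libraries each, of C and D1 and of R1 and R3. Permuting within lanes therefore cannot separate phase from lane here. The spread also failed the test in soleus without R1 U20 (0.0865) or R1 U21 (0.0591) and in EDL without control U7 (0.0613) or U8 (0.0545). Soleus recovery differed from the soleus controls by −0.55 (adjusted p = 0.18, exact permutation test) and EDL unloading from the EDL controls by −0.60 (adjusted p = 0.123). Between the muscles the minus share differed by 0.04 points (adjusted p = 0.743, permutation test with 100000 resamples).

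**Figure D4:**
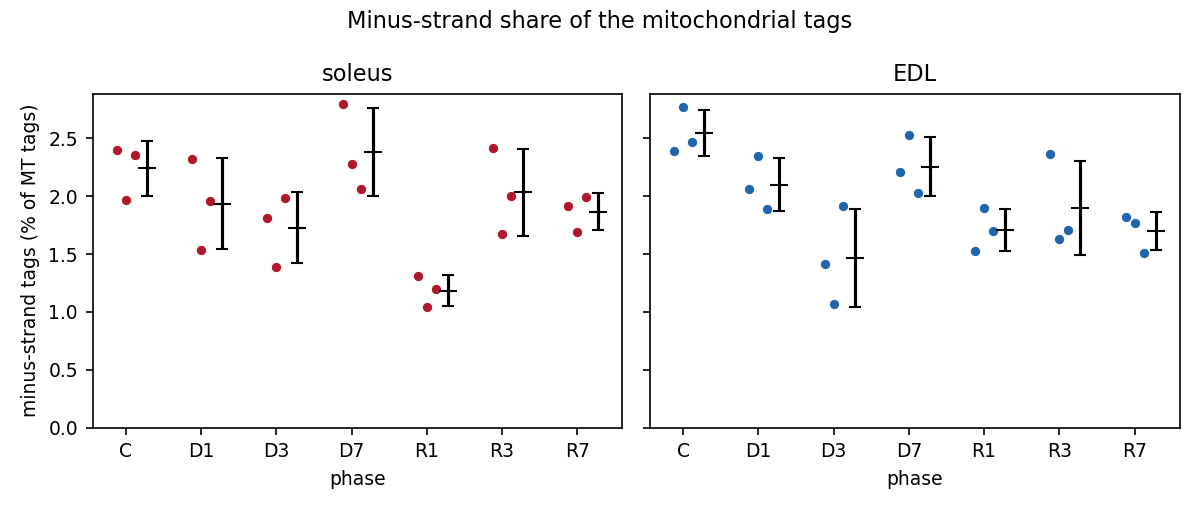
Minus-strand tags as a percent of the MT tags for every soleus (left) and EDL (right) library by phase, with points for libraries and bars for the mean ± SD of 3 libraries. The 3 soleus R1 libraries, at 1.04% to 1.31%, lie below all other soleus libraries, and the EDL controls have the highest mean of their muscle, 2.54%.

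For single bins edgeR's quasi-likelihood test was run on the tag counts of all 100 nt bins of the genome, with TMM normalization and adjustment over all bins tested. The limits for a call were 0.05 on the adjusted p and a change of more than 2.38-fold in either direction. In soleus 43825 bins passed the count filter, 322 of them on MT, and the other 5 MT bins, all on the minus strand, held too few tags. At R1 against C, 78 of the 322 MT bins were called lower, 43 on the plus and 35 on the minus strand, and none was called higher. Over all bins tested, 7.94% were called lower in this comparison. Without the fold limit 102 MT bins were lower, against a background of 9.67%. The median log2 fold change of the MT bins was −1.28 (318 of 322 negative) where that of all bins was −0.01. The called bins held 7.46% of the MT tags in the controls and 3.74% at R1.

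The fall was uneven along the genome. None of the 10 plus-strand bins was called in each of the first 3 kb, where the largest starts lie, and the median log2 fold changes there were −0.87, −0.63 and −0.65. On the plus strand 9 of 10 bins were called at 12001 to 13000 (median −1.39) and 7 of 10 at 14001 to 15000 (median −1.58). The lowest plus-strand median, −1.99, was at 15001 to 16000, where none of 10 was called. On the minus strand 8 of 10 were called at 13001 to 14000 (median −1.62), and 4 of 10 at 1001 to 2000, which had the lowest median of either strand, −2.15. The plus-strand bin from 1001 to 1100, which holds the start of the window that parts the animals, was the largest exception to the fall, with a log2 fold change of 2.45 ± 1.51 (SE, adjusted p = 0.232). The first 2500 positions held 82.7% ± 0.5 of the plus-strand tags at R1 and 75.7% ± 0.9 in the controls, and 80.3% and 75.4% without the window. All 3 controls and no R1 animal were among those that stood apart, so this difference cannot be told apart from one between animals. In libraries thinned to 179095 MT tags, U1 and U2 had 78.2% and 76.6% at D7 against 84.3% in U3. U4 had 72.4% at R3 against 78.1% and 74.7%, and U9 had 78.0% at D3 against 82.0% and 76.7%.

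The main minus-strand bins were among those that fell. The bin from 13601 to 13700 had 113, 110 and 84.2 CPM in the controls and 39.4, 44.2 and 37.9 at R1 (log2 fold change −1.70 ± 0.33, SE, edgeR adjusted p = 0.000995). The bin from 14001 to 14100, with the largest minus-strand position, had 124, 95.6 and 94.4 CPM in the controls and 35.3, 58.9 and 57.4 at R1 (−1.40 ± 0.28, adjusted p = 0.00156). In both bins every R1 library was below every control. The CPM rest on library totals, whereas the fold changes also use TMM factors and show a larger fall. By mean CPM the bin from 14001 to 14100 (105 in the controls and 50.5 at R1) stayed short of the 2.38-fold limit. So did the bin from 13501 to 13600 (52.3 and 27.7). The bin from 13501 to 13600 fell as well (−1.28 ± 0.31, adjusted p = 0.00586), 13901 to 14000 had −1.15 ± 0.29 (adjusted p = 0.00651) and stayed short of the fold limit, and 13801 to 13900 had −0.81 ± 0.31 (adjusted p = 0.0651). In these bins the mean CPM of R3 and of R7 lay above that of R1. At R7 every library was still below every control in the bins 13601 to 13700 and 14001 to 14100. The bin from 13601 to 13700 had 104, 64.8 and 94.2 CPM at R3 and 56.1, 59.0 and 73.9 at R7. In EDL the same 5 bins had log2 fold changes between −0.15 and 0.10 at R1, with adjusted p of at least 0.968. These bins do not stand for all of MT in EDL, where the median over 319 MT bins at R1 was −0.87 with 291 negative.

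The 3 called bins with the largest fall among those that held at least 0.1% of MT tags were minus-strand 1301 to 1400, plus-strand 3301 to 3400 and plus-strand 14901 to 15000. The first had 0.202%, 0.156% and 0.128% of the MT tags in control soleus and 0.0393%, 0.0082% and 0.0136% at R1 (log2 fold change −3.53 ± 0.92, edgeR adjusted p = 0.00862). Among the other phases it was high in the animals that stood apart, 0.243% in U1 and 0.144% in U2 at D7 against 0.0357% in U3, and 0.108% in U4 at R3 against 0.0138% and 0.0228% in U5 and U16. The bin from 3301 to 3400 had 0.107%, 0.156% and 0.105% in the controls and 0.0375%, 0.0309% and 0.0400% at R1 (−2.43 ± 0.51, adjusted p = 0.00188), and again U1 and U2 (0.149% and 0.126%) were above U3 (0.0638%) at D7. The bin from 14901 to 15000 had 0.378%, 0.403% and 0.430% in the controls and 0.167%, 0.162% and 0.136% at R1 (−1.96 ± 0.42, adjusted p = 0.0024), with 0.388%, 0.396% and 0.154% in U1, U2 and U3. In all 3 bins the difference between R1 and the controls cannot be told apart from that between the animals. Of the 78 called bins, 40 (51.3%) had U1 and U2 above U3 at D7 together with U4 above U5 and U16 at R3 in soleus, as had 39 (15.98%) of the 244 bins that were not called. In EDL 27 (34.6%) of the same 78 bins and 50 (20.5%) of the other 244 had these animals in that order. The minus-strand bin 13601 to 13700 also had U1, with 145 CPM, and U2, with 93.7, above U3, with 78.7, and U4, with 104, above U5 and U16, with 64.8 and 94.2. In the bin 14001 to 14100 U1 and U2 had 109 and 105 CPM against 72.1 in U3, and U4 had 148 against 94.9 and 86.4. The D1 and D3 animals that did not stand apart had 105 to 201 CPM in the bin 13601 to 13700 and 115 to 253 CPM in the bin 14001 to 14100, all above every R1 library. U3, U5, U16 and the R7 animals, which did not stand apart either, were lower than this in both bins. The R7 means were 63.0 and 78.2 CPM. What part the phases and the animals have in these levels was not tested.

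**Figure D5:**
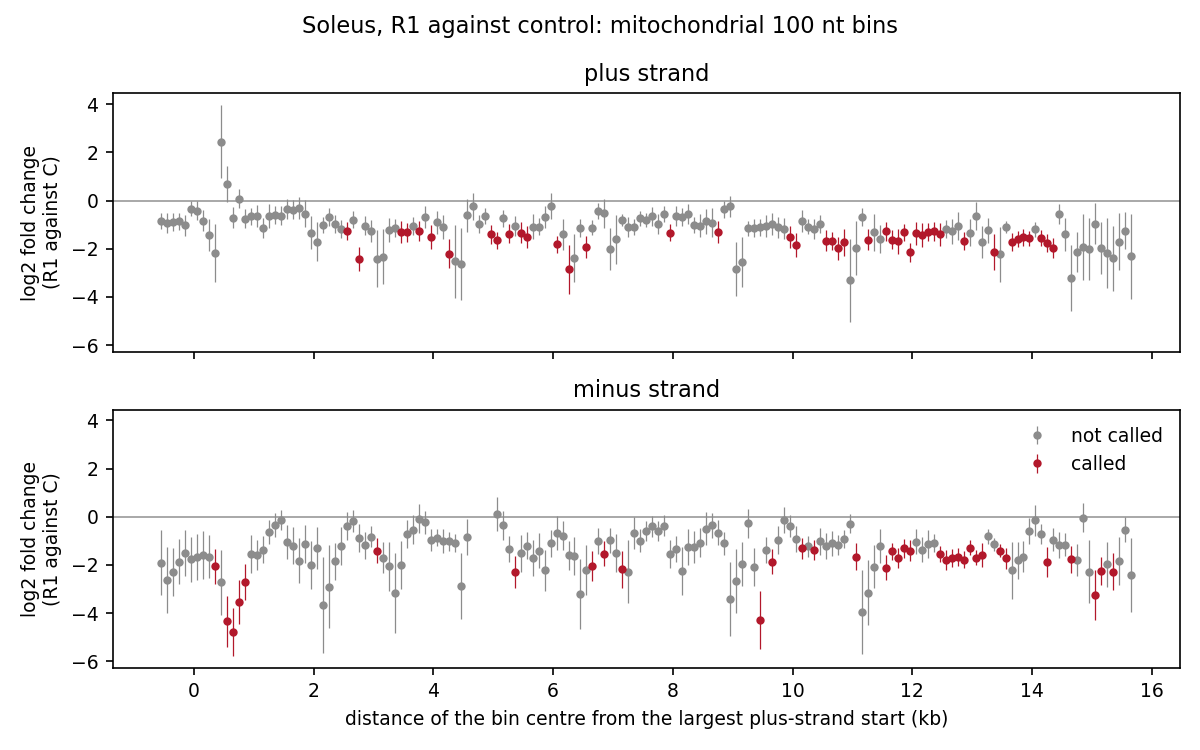
Log2 fold change of each MT bin in soleus at R1 against C (points) with its standard error (bars), on the plus strand (upper panel) and the minus strand (lower panel), against the distance of the bin centre from the largest plus-strand start in kb. Called bins are red, all 78 of them lie below 0, and none is called in the first 2 kb of the plus strand.

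The number of bins called in soleus depended on single libraries and on the scaling. It was 43 without control U6, 44 without control U7, 118 without control U8, 35 without R1 U20 and 37 without R1 U21. The calls over all bins in these fits are not given here. Dividing by library totals in place of TMM left 38. At R1 alone 37 of the 322 MT bins were then called lower, as were 1761 of all 43825 bins, where TMM gave 3481 of all bins. This scaling shifted the median of all bins at R1 to 0.31, with an MT median of −0.91. With the MT tags of each library as its size 14 bins were called at R1. A term for the sequencing lane could only be fitted over both muscles at once, because within a muscle no shared lanes link the R1 libraries to the controls. In that fit without the lane, 70 of 324 MT bins and 8336 of all bins were called at R1, and with it 0 MT bins and 1 of all bins, while the median standard error over all bins went from 0.56 to 1.70. The median log2 fold change of the MT bins went from −1.25, with 320 of 324 negative, to −0.30, with 190 negative.

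The other phases gave few or no calls in soleus. At R7, 2 MT bins were called lower (0.507% of all bins), minus-strand 1301 to 1400 (−3.86 ± 0.94, edgeR adjusted p = 0.0417) and its neighbour from 1201 to 1300 (−4.79 ± 1.05, adjusted p = 0.0292). Both bins part the animals that stood apart from the rest. The second held 0.0431% to 0.0735% of the MT tags in the controls, 0.0599% and 0.0448% in U1 and U2 against 0.0058% in U3, 0.0361% in U4 against 0.0030% and 0.0041% in U5 and U16, and 0.0023% to 0.0040% at R7. No R7 animal was among those that stood apart, so in both bins the difference between R7 and the controls cannot be told apart from one between animals. No MT bin was called at D1, D3, D7 or R3 by edgeR, where 0.689%, 0.0639%, 0.0137% and 0.0958% of all bins were called and where 29, 14, 3 and 39 of the 322 MT bins had an unadjusted p under 0.05, as had 5254 of the 43825 bins at D1 and 11.4%, 7.34% and 15.9% of all bins at D3, D7 and R3. DESeq2 called 1 MT bin lower at D1 (0.790% of all bins) and 7 at R7 (0.924%), and none at D3, D7 and R3 (0.623%, 0.374% and 1.44% of all bins in either direction). The median log2 fold change of the MT bins was −0.01 at D1, −0.09 at D3 and 0.01 at D7, but −0.61 at R3 and −0.55 at R7, with 295 and 284 of 322 bins negative.

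Recovery was also set against unloading over all 3 phases of each. This comparison of the bins was not planned in advance. In soleus all 322 MT bins had a negative log2 fold change (median −0.73), and 129 passed an adjusted p under 0.05, 75 on the plus and 54 on the minus strand, against 13.3% of all bins in this direction. With the fold limit 13 were called lower, 4.04% of the MT bins and so no more than the 4.44% of all bins. These were all on the minus strand and 12 of them within the first 2500 positions. Of the animals that stood apart, U1, U2 and U9 were in unloading and only U4 in recovery. In bins that part the animals this difference cannot be told apart from one between animals. Without U1, U2, U4 and U9, which leaves 1 library at D7, the median log2 fold change of the MT bins was −0.84. The largest plus-strand bins moved with the rest. The bin from 201 to 300 had a mean of 3621 CPM in recovery and 6700 in unloading (−0.95 ± 0.21, edgeR adjusted p = 0.0021), and 501 to 600 had 4660 and 7391 (−0.76 ± 0.18, adjusted p = 0.00381). The bin from 1001 to 1100 did not pass (−0.39 ± 0.83, adjusted p = 0.765). In the fit over both muscles 12 of 324 MT bins were called lower, as were 1945 of all 44446 bins. All 324 MT bins were negative and the median was −0.71. With a term for the lane in that fit none was called, 122 were negative and the median was 0.26, so that the direction turned, with a median standard error over all bins of 0.96 against 0.34 without the lane. The count of 13 became 4 to 8 without D1 U24, D1 U26, D3 U11, D7 U1, R1 U20, R1 U21, R3 U4, R3 U5, R7 U12 or R7 U13, and 21 to 52 without D1 U25, D3 U9, D7 U2, R1 U18, R3 U16 or R7 U19.

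In EDL 27317 bins were tested, 319 of them on MT. At D1, 4 MT bins were called lower (0.428% of all bins), of which only minus-strand 16101 to 16200 held 0.1% of the MT tags. It had 0.129%, 0.0998% and 0.118% in the controls and 0.0151%, 0.0196% and 0.0419% at D1 (log2 fold change −2.09 ± 0.52, edgeR adjusted p = 0.0494). The libraries of EDL D1 U24 and U25 were among the 3 shallowest of the series, with 1778712 and 2650176 tags. At D3, 2 were called lower (0.205%), and minus-strand 1301 to 1400 was one of them (−2.95 ± 0.68, edgeR adjusted p = 0.0412, and 0.0895 in the fit over both muscles). This bin held 0.149% to 0.213% of the MT tags in the EDL controls and 0.0335%, 0.0071% and 0.0367% in U9, U10 and U11 at D3. It was also high in U1 and U2 at D7 (0.162% and 0.148%, against 0.0451% in U3) and in U4 at R3 (0.133%, against 0.0290% and 0.0269%), but not in U9, which was among the animals that stood apart. At D7 none was called by edgeR (0.395% of all bins) and 24 MT bins had an unadjusted p under 0.05 (9.12% of all bins). At R1, R3 and R7 edgeR called 0 MT bins, and 0 over all bins (0%, 0% and 0%), while 125, 15 and 24 of the 319 MT bins had an unadjusted p under 0.05, as had 8.60%, 10.2% and 3.37% of all bins. DESeq2 called 15 MT bins at D1 (0.622% of all bins were called lower), 17 at D3 (1.20%), 7 at R1 (0.103%) and 1 at R7 (0.00732%), all lower. It called none at D7 (1.12% of all bins in either direction) and R3 (0.326%). With the MT tags of each library as its size, edgeR tested 318 MT bins alone. It then called 64 lower and 1 higher at D1, 79 lower at D3, 19 lower and 1 higher at R1, and none at D7, R3 and R7. All 3 controls, 1 animal at D3 and none at D1 or R1 were among those that stood apart. In EDL, lane 1 held all controls and no other phase. These differences from the controls therefore cannot be told apart from ones between animals or lanes. The 6 bins of D1 and D3 became 3 without control U6 or D3 U9, 0 without control U7 or U8, 2 without D1 U24 or U25, 10 without D7 U3 and 84 without D3 U11. Between recovery and unloading no MT bin was called in EDL (1.68% of all bins, 6 MT bins with an unadjusted p under 0.05, as had 4105 of all 27317 bins), and the median was 0.12.

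Between the muscles the MT bins were lower in soleus almost throughout when the 7 phases were pooled. This did not hold for every bin in each phase. The largest bin, plus-strand 1501 to 1600, had means of 7339 CPM in soleus and 6942 in EDL in the controls, but 4228.5 and 6771 at R7. Of 324 MT bins tested in the fit over all 42 libraries, 321 were negative with a median log2 fold change of −0.62, where that of all bins was 0.10. At an adjusted p under 0.05, 204 were lower in soleus (18.4% of all bins) and none higher. Only 4 passed the fold limit (7.58% of all bins), plus-strand 3801 to 3900 (−1.32 ± 0.19, edgeR adjusted p = 4.68e-07), plus-strand 5001 to 5100, minus-strand 1001 to 1100 and minus-strand 2101 to 2200. With the animal as a block these counts were 207 and 5, where 7999 and 3387 of all 44446 bins were lower by the same limits. The 4 bins became 14 without soleus D3 U11, 9 without soleus R1 U18 or R7 U19, and 2 without soleus R7 U12 or EDL C U7, D3 U11, D7 U2 or R3 U5.

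The difference of the change between the muscles was tested as an interaction in the same fit. These interactions were added after the data had been seen. For R1 against C no MT bin was called by edgeR or DESeq2 (1.91% of all bins by edgeR and 3.04% by DESeq2), 12 had an unadjusted p under 0.05 (13.5% of all bins), and the median difference was −0.37. The minus-strand bin from 13601 to 13700 had −1.49 ± 0.52 (edgeR adjusted p = 0.136) and 14001 to 14100 −1.43 ± 0.48 (adjusted p = 0.123). For recovery against unloading 320 of 324 MT bins had a negative difference (median −0.82), 6 passed an adjusted p under 0.05 (4.41% of all bins were lower) and 3 were called lower (3.13%). With the animal as a block 13 passed and 5 were called, as did 1708 and 1239 of all 44446 bins in this direction. With a term for the lane 0 MT bins were called (624 of all bins lower), with 315 of 324 negative and a median of −0.61. Leaving out 1 library gave 1 without EDL D1 U26 or R3 U5, 5 to 8 without soleus D1 U25, D3 U9, D7 U2, R1 U18 or R3 U16 or EDL D1 U25, D7 U2, R1 U18 or R3 U4, 23 without EDL D3 U11 and 29 without soleus R7 U19.

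The table of tag clusters that the authors deposited holds MT as 1 cluster per strand, with the same tags as the CTSS. Tested with edgeR over all deposited clusters, the minus-strand cluster was lower in soleus at R1 (−1.57 ± 0.44, adjusted p = 0.00991, where 40.0% of the clusters passed in either direction), and the plus-strand cluster had −0.67 ± 0.41 (adjusted p = 0.195). In soleus recovery against unloading both were lower, plus by −0.76 ± 0.24 (adjusted p = 0.0154) and minus by −1.04 ± 0.25 (adjusted p = 0.00307), where 46.1% of the clusters passed. In EDL the lowest edgeR adjusted p of either MT cluster was 0.296, for the minus strand at D3 (−1.05 ± 0.52).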

How the data were processed

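Per the paper's methods, nAnT-iCAGE libraries were sequenced in single-end mode, trimmed with Trimmomatic, aligned by STAR against Rnor_6.0 and Ensembl gene models at up to 20 loci per read, and aggregated to CTSS with PromoterPipeline. The submitters' processing notes name Trimmomatic 0.38, BWA and HISAT2, so the aligner of the deposited tables is not settled by the sources used here. For every library the authors deposited counts, whole tags per CTSS position and strand on Rnor_6.0 without normalization, and for the series a table of counts over tag clusters. Its 42 normalized columns were not used. Every column had a sample (0 without one). Reads that also match nuclear copies of mitochondrial DNA were not separated. How the lack of a cap on mitochondrial RNAs affects its recovery in a cap-selected library was not tested.

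Tags were summed in bins of 100 nt by strand over the whole genome. The test was edgeR 4.0.16 in R 4.3.3 (filterByExpr, TMM, glmQLFit and glmQLFTest, Benjamini-Hochberg adjustment over all bins tested), fitted to the 7 groups of each muscle, or to all 14 groups at once for comparisons between muscles. Calls needed an adjusted p below 0.05 and a log2 fold change larger than 1.25 in size. The standard error was the fold change divided by the square root of F. Median biological coefficients of variation were 0.348 in soleus and 0.354 in EDL (0.412 and 0.433 for the MT bins). DESeq2 1.42.0 was the alternative. Shares of library tags and of MT tags were compared by two-sided permutation tests over libraries, exact or with 100000 resamples, adjusted over 9 tests per measure (Python 3.11.15, numpy 2.4.6, scipy 1.17.1, pandas 2.3.3). Single phases of 3 libraries were not tested this way. Library totals were 61.6% to 89.2% of the library sizes in the labels. The edgeR p-values rest on the spread between the 3 animals of each group, and those of the permutation tests on the libraries pooled over the phases compared. The scripts were tested on simulated data.

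Animal numbers in the titles link the muscles of a rat. Deviations of both muscles from their group means correlated over 147 bins with r between −0.24 and 0.92 (median 0.39), over 0.1 in 16 of 21 animals, and those of the MT share had the same sign in 7 of 21. Phases were compared between different animals, so the block applies only between muscles.

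Named were the 10 largest positions, the 5 largest bins of each strand and, per comparison, up to 3 called rises and 3 called falls with at least 0.1% of MT tags in either group. Bins that were called but hold less were named after their values were seen. The members and lists were chosen with earlier results of these data known. Gene-level values on MT, nuclear genes of mitochondrial transcription and cell type markers were not analysed here, because they need an annotation that was not used.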

Additional observations from a re-analysis of the deposited data

Results flagged for a closer look

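The change of the mitochondrial share between recovery and unloading differed between the muscles. The share of soleus minus that of EDL in the same animals was −3.21 percentage points over the 9 recovery animals and −0.07 over the 9 unloading animals, a difference of −3.13 (exact permutation of the phase labels over animals, p = 0.0044). The test was not among the 9 planned for this measure, and its p was not adjusted. The recovery libraries of soleus were all in lanes 4 to 6 and those of unloading in lanes 1 to 3. In lanes 4 and 5 the soleus libraries had mean shares of 5.53% and 4.78% and the EDL libraries 8.87% and 8.86%. The part of the lanes in this difference was not tested. The same comparison of the minus-strand share gave −0.15 (p = 0.45, exact permutation of the phase labels over animals).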

How the results depend on the processing

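Several results depended on the processing. Without the plus-strand window 1091 to 1132 or without both strands of 1001 to 2000 (both chosen after seeing the data), the MT share in soleus recovery against control was −2.06 and −1.34 and passed, and the spread of soleus group means was 41.0 and 19.8 and passed, as it did at 29.3 with the label library sizes (47.0 as reported). EDL differences in share changed sign: unloading against control was −0.64 with TMM factors and −0.0034 without 1001 to 2000. EDL recovery against control was −0.75 with TMM factors and −0.092 and −0.17 without the window and the kb. In both muscles the mean of the window was lowest in the controls (1.20% of the MT tags in soleus and 1.34% in EDL). Leaving it out thus takes more from the other phases than from the controls. EDL recovery against unloading was −0.11 with TMM factors, −0.032 without the 10 largest positions, and −0.23 and −0.17 without the window and the kb. For the minus share, leaving out the kb gave 0.047 between muscles, 0.041 for soleus unloading against control, −0.42 for EDL recovery against control and spreads of 2.90 (soleus) and 1.82 (EDL). Within lanes, where the labels of C and R1 could hardly move, the spreads of 2.73 and 2.47 did not pass. With library totals 1761 of all bins were called lower in soleus at R1, where TMM gave 3481. MT bins called in any phase in soleus (78) came to 38 with library totals, 14 with MT tags as size, 45 at 200 nt, 71 in a fit over both muscles (added after seeing the data) and 0 with the lane as a block in that fit. In EDL (6) they came to 111 with MT tags as size, 31 with DESeq2, 30 without the count filter, 12 without animals U1, U2, U4 and U9 (chosen after seeing the data, with 1 library left at D7), 6 in the fit over both muscles and 0 with the lane in it. Between muscles (4) they came to 1 with library totals, 0 with MT tags as size, 2 at 200 nt, 1 without the filter and 204 without the fold limit. Soleus recovery against unloading (13) gave 8 with DESeq2 size factors, 0 with MT tags as size, 6 at 200 nt, 12 in the fit over both muscles, 0 with the lane in it and 129 without the fold limit, and its interaction with muscle (3) gave 5 with library totals, 0 with MT tags as size, 6 in shifted bins, 1 at 200 nt, 0 with the lane, 5 with the animal as a replicate block, 0 without the filter and 6 without the fold limit. Between muscles the replicate block gave 5 called bins, and 207 without the fold limit, and it moved no test of a share across its threshold. Thinned to 179095 MT tags, plus-strand positions fell from 10035 to 6922 in soleus and from 9875 to 7165 in EDL, and minus-strand positions from 3440 to 1471 and from 3358 to 1555. Leaving out 1 library each, the MT share ranged from −1.70 to −1.34 between muscles, 0.55 to 1.94, −2.50 to −1.11 and −3.30 to −2.79 in the soleus contrasts (unloading and recovery against control, recovery against unloading), and −0.0036 to 1.504, 0.077 to 1.58 and −0.20 to 0.35 in those of EDL, with spreads of 36.6 to 54.0 and 4.59 to 9.99. The minus share ranged from −0.089 to −0.0011 between muscles, −0.36 to −0.15, −0.68 to −0.47 and −0.41 to −0.22 in soleus, and −0.68 to −0.49, −0.85 to −0.66 and −0.28 to −0.098 in EDL, with spreads of 1.97 to 2.86 and 1.85 to 2.77. Called bins ranged from 35 to 118 in soleus, 0 to 84 in EDL, 2 to 14 between muscles, 4 to 52 and 0 to 2 for recovery against unloading in soleus and EDL, and 0 to 1 and 1 to 29 for the interactions at R1 and for recovery. The causes were not tested. The minus strand, with 3698 to 35351 tags per library, limits the precision of its bins.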

Other observations

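The part of the plus-strand tags within the first 2500 positions also differed between phases in EDL. It was 70.1% ± 1.1 in the controls and 79.2% ± 0.6 at D1 (SD, n = 3). At D3 and D7 it was 73.8% ± 0.7 and 72.8% ± 1.6. The recovery groups had 75.9% ± 2.2 (R1), 75.0% ± 1.7 (R3) and 74.0% ± 1.8 (R7). Without the window of 1091 to 1132 the controls had 69.7% ± 0.6 and D1 76.3% ± 0.9, so the 2 groups still did not overlap, and 3 against 3 libraries cannot give an exact p below 0.1. All 3 controls and no D1 animal were among those that stood apart, and no EDL library of D1 was in the lane of the controls. The difference can therefore not be told apart from one between animals or lanes. In libraries thinned to 179095 MT tags, U1 and U2 had 72.8% and 71.0% at D7 against 74.4% in U3. U9 had 73.0% at D3 against 74.3% and 74.0%, and U4 had 74.1% at R3 against 74.0% and 77.1%. In soleus, D7 had the widest spread, 79.8% ± 4.1, and R7 the lowest mean, 73.8% ± 2.3.

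The number of plus-strand positions that held 50% of the tags of that strand ranged from 36 to 89 (median 52.5) over the 42 libraries, and the number of minus-strand positions from 63 to 458 (median 200). Between the muscles, the largest difference in level by kb outside the first 2 kb was at 4001 to 5000 of the plus strand, with 2.82% ± 0.54 of the MT tags in soleus and 3.72% ± 0.79 in EDL (SD, n = 21 each), chosen after its value was seen and not tested.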
